A study of Mus musculus with 50 samples.

Results

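The genes described here are 43 endothelial genes, taken by symbol from a given list, out of 35717 genes in a table of left-ventricular expression in 50 mice. They are general, capillary and large-vessel genes of the endothelium together with the factors that regulate it, and the rule that picks them uses their names and no measured value. All 43 passed the filter for testing, an FPKM (fragments mapped to a gene, scaled for its length and for sequencing depth) of at least 1 in at least 5 libraries, as did 11628 genes in all. Of the 43, 42 reached that level in every library. The exception was Nr2f2, a receptor-type transcription factor of veins, which reached it in 3 of 11 WT saline, 1 of 14 WT Ang II, 0 of 12 Tg saline and 2 of 13 Tg Ang II libraries, so its values stand at the edge of the filter.

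The mice were 40 weeks old and of the C57BL/6J background. Transgenic mice (Tg) overexpress LARP6, an RNA-binding protein, in cardiomyocytes, and wild-type littermates (WT) do not; the sources used here name neither the promoter of the transgene nor the number of founder lines. Each mouse was infused for 21 days, either with saline or with angiotensin II (Ang II, a peptide that constricts vessels and thereby raises blood pressure, given here at 1000 ng/kg/min), before the left ventricle was taken. The groups held 11 WT saline libraries (5 female, 6 male), 14 WT Ang II (7 and 7), 12 Tg saline (6 and 6) and 13 Tg Ang II (7 and 6), and the title states the question as whether extra LARP6 in the muscle cells changes the myocardial response to Ang II.

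Endothelial cells line the blood vessels, and in heart muscle most of them form the dense capillary bed between the cardiomyocytes. They hold together through VE-cadherin junctions, are kept alive and guided by VEGF and angiopoietin signalling, and take on arterial or venous character under Notch, SOX-family and ephrin signals. Transcription factors of the ETS family, such as ERG, FLI1 and ETS1, are known to act at the regulatory DNA of most endothelial genes. In RNA from whole ventricle, fewer endothelial cells and less RNA of these genes per endothelial cell cannot be told apart.

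RefSeq gave promoter windows on GRCm38.p6 for 24 of the 43 genes, 30 windows in all, and the 250 bases before each RefSeq start were searched. The windows of the 4 genes with the smallest p between the genotypes under saline, among those with a window, show the start regions of genes that were lower in Tg hearts. Each is given 5′ to 3′ on the strand of the gene, with the ETS core motif GGAAG or its reverse complement CTTCC in capitals. Ephb4 is at chr5:137349859-137350108 (plus strand), Tie1 at chr4:118489850-118490099 (minus strand), Eng at chr2:32646345-32646594 (plus strand) and Flt1 at chr5:147726012-147726261 (minus strand).
Ephb4: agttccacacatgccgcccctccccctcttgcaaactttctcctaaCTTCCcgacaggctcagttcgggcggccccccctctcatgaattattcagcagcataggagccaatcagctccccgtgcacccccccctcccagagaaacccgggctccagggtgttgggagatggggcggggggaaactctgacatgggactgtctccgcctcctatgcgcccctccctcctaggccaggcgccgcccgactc
Tie1: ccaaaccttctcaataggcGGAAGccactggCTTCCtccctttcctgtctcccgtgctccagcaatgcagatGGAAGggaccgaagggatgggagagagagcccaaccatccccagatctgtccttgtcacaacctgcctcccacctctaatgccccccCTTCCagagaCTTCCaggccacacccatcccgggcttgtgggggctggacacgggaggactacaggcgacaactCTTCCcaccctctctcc
Eng: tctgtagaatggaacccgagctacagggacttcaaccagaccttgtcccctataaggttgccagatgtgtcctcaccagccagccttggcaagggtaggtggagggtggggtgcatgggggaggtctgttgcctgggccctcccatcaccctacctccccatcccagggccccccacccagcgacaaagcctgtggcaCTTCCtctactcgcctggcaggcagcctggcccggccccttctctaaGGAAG
Flt1: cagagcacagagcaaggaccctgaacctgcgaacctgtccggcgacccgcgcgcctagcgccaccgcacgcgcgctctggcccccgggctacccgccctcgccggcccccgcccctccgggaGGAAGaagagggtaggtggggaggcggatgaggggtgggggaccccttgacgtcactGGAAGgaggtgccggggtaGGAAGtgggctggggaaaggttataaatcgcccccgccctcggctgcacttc
The core occurs 1 time in the window of Ephb4, 6 times in that of Tie1, 2 times in that of Eng and 3 times in that of Flt1. The RefSeq start of Tie1 lies inside the gene as the deposited table places it, so that 212 of its 250 window bases and 4 of its 6 matches fall within that gene and 2 matches lie before it. The other windows lie wholly before the deposited genes. It was present in 22 of the 30 windows (73.3%), against 64.1% of all 32851 windows of that length, with a mean of 1.6 matches per window against 1.08. The SOX core ACAAT (or ATTGT) was present in 6 of the 30 windows, against 27.7% of all, and the GATA core GATAA (or TTATC) in 13.3%, against 22.6%. These are matches of letters in a short window, given as a description.

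Most of the 43 genes were lower in Tg than in WT hearts, with saline and with Ang II alike. Levels are given as scaled FPKM, the FPKM after division by the median-of-ratios factor of its library. Called means an adjusted p below 0.05 by edgeR's quasi-likelihood test over all 11628 genes. Under saline 36 of the 43 genes were called lower in Tg and 0 higher, where 20.2% of all genes tested were called lower. The median log2 fold change of the 43 was -0.42, with 42 below 0, and that of all genes tested was 0.00. With Ang II 33 were called lower and 0 higher, against 16.4% of all genes called lower, and the median was -0.38, against -0.008 for all genes. The libraries of the saline comparison and those of the Ang II comparison do not overlap, and 30 genes were called lower in both. The share of all genes tested that was called lower in both is not given here. Calcrl, Cav1, Cav2, Clec14a, Nr2f2 and Nrp1 were called under saline alone and Aqp1, Gpihbp1 and Ramp2 with Ang II alone. Cldn5, Ecscr, Plvap and Vwf were called in neither. Whether the difference between the genotypes itself changed with Ang II was tested and is given further on.

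**Figure D1:**
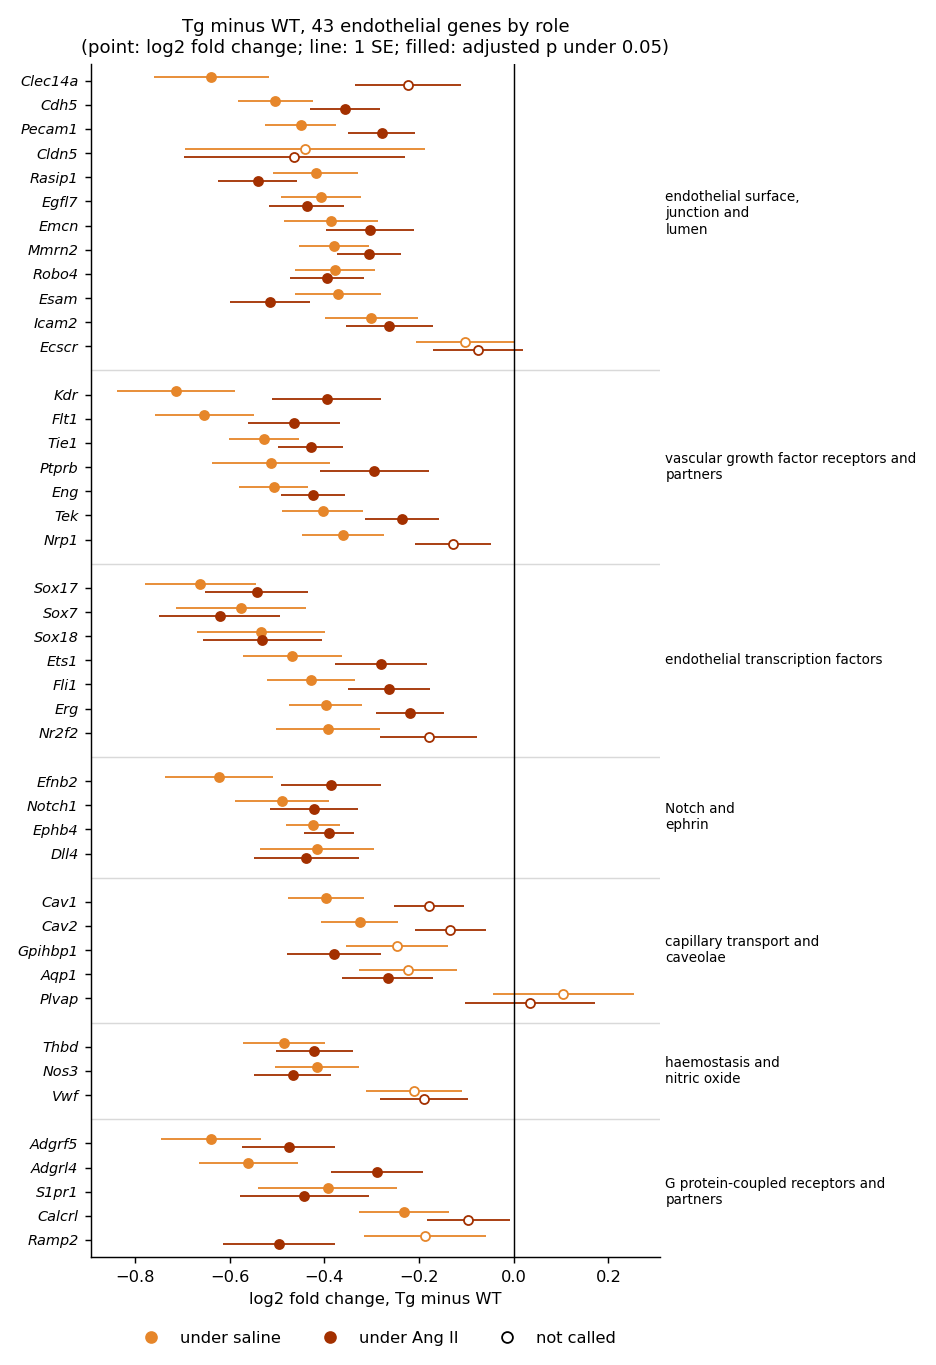
Log2 fold change between Tg and WT for each of the 43 genes (rows, grouped by role), under saline (orange) and with Ang II (dark red), with a line of 1 SE to each side. Filled points passed an adjusted p of 0.05; 42 of 43 points lie below 0 under each treatment, and Plvap alone lies above.

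The sum of the 43 genes per library gives the same picture in 1 value, without a test. It ran from 556 to 807 scaled FPKM with a median of 689 in WT saline, from 543 to 873 (median 686) in WT Ang II, from 433 to 622 (median 506) in Tg saline and from 472 to 711 (median 511) in Tg Ang II. The mean of Tg was 75.8% of that of WT under saline and 78.9% with Ang II. The genotypes overlapped under both treatments, and in Tg Ang II 1 library, number 326 (a male), stood at 711 while the other 12 ended at 559. Library 326 was the highest of its group for 33 of the 43 genes. Its Larp6 level was 948, inside the Tg range.

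**Figure D2:**
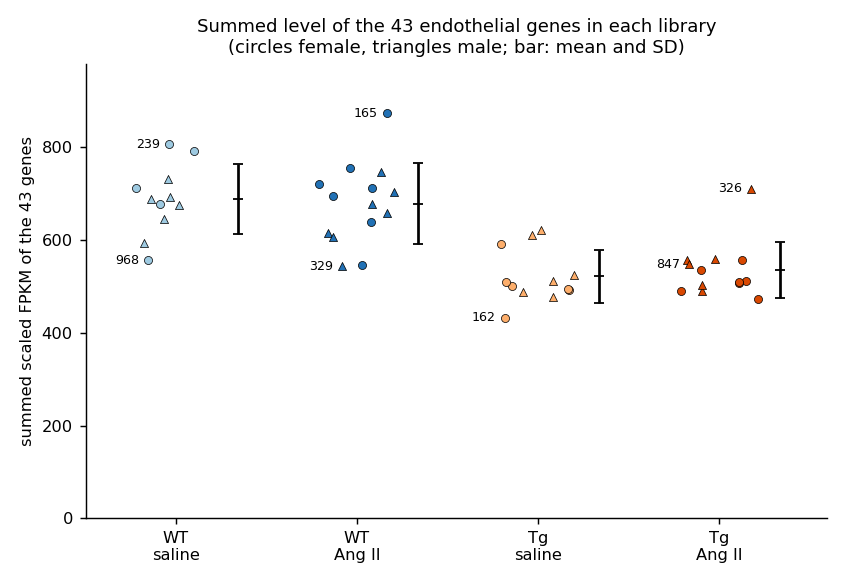
Summed scaled FPKM of the 43 endothelial genes (vertical axis) in each library of the 4 groups, circles for females and triangles for males, with the group mean and SD to the right. Numbers mark 7 single libraries, among them the lowest and highest of several groups; 326 stands at 711 among Tg Ang II libraries that otherwise end at 559, and 329 at 543 is the lowest of WT Ang II.

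Larp6 checked the labels. In Tg libraries it ran from 444 to 1631 scaled FPKM, and in 24 WT libraries from 5.61 to 63.7. Library 329, labelled a WT Ang II male, stood at 1004, within the Tg range, and its column in the deposited table carries the letters of a Tg mouse. It was the lowest of the WT Ang II group for 21 of the 43 genes. Library 847, labelled a Tg Ang II male, carries WT letters but stood at 1119. Both were kept under their labels; without them 35 genes were called under saline (Calcrl no longer) and 34 with Ang II (Aqp1 no longer, Cav1 and Nrp1 in addition). Total counts per library were 53877439 to 91579342, and the 43 genes had mean counts of 486 to 20300. The median coefficient of variation of a gene within a group was 15.2% to 18.6%.

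Of the 12 genes of junctions, cell surface and vessel lumen, 10 were called lower in Tg hearts under saline (median log2 fold change -0.40). With Ang II 9 were called lower (median -0.33), and all 12 values were below 0 under both treatments. Cdh5 encodes VE-cadherin, the adhesion molecule of endothelial junctions (chromosome 8, 104101625 to 104144511, plus strand, GRCm38). Its level ran from 32.0 to 48.3 scaled FPKM (median 38.0) in WT saline, 24.9 to 50.0 (36.4) in WT Ang II, 23.8 to 32.8 (28.1) in Tg saline and 23.0 to 38.9 (28.2) in Tg Ang II. Under saline the highest Tg libraries reached just into the lower end of WT, while with Ang II the overlap was wider. The log2 fold change was -0.50 ± 0.08 (SE, adjusted p = 1.7e-06) under saline and -0.36 ± 0.07 (adjusted p = 0.00016) with Ang II. Pecam1, or CD31, a contact molecule of endothelial cells, had medians of 29.2, 26.8, 19.5 and 22.5 scaled FPKM in the same 4 groups, and ran from 22.2 to 32.9 in WT saline and from 17.4 to 24.6 in Tg saline. Under saline the ranges overlapped between 22.2 and 24.6, and the difference was -0.45 ± 0.08 (adjusted p = 5.6e-06), against -0.28 ± 0.07 (adjusted p = 0.0017) with Ang II.

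The other members of that group followed with differences of similar size. Clec14a, a lectin-like receptor of sprouting endothelium, had the lowest value of the group under saline (-0.64 ± 0.12, adjusted p = 3.8e-05) but -0.22 ± 0.11 with Ang II, which was not called. Rasip1, a RAS-interacting protein needed for vessel lumens (-0.42 under saline and -0.54 with Ang II), Esam, a tight-junction adhesion molecule (-0.37 and -0.51), and Egfl7, a matrix factor secreted by endothelium (-0.41 and -0.44), were lower in Tg under both treatments. Robo4 (-0.38 and -0.39), Mmrn2, an endothelial matrix glycoprotein that binds CLEC14A (-0.38 and -0.31), Emcn, the sialomucin endomucin (-0.39 and -0.30), and Icam2 (-0.30 and -0.26) were also called under both. Cldn5, the tight-junction claudin of endothelium, had values as low as these (-0.44 ± 0.25 and -0.46 ± 0.23) with wider errors, and ran from 4.60 to 32.6 scaled FPKM in WT Ang II alone, where library 165 held the highest value. Ecscr, an endothelial chemotaxis regulator, differed least in this group (-0.10 ± 0.10 under saline, 95% interval -0.31 to 0.10). The exons of Egfl7, Rasip1 and Ecscr overlap genes on the opposite strand, and the strand setting of the counting is not given in the sources used here.

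Growth factor receptors and their partners were called lower in Tg for all 7 members under saline, with a median of -0.51. With Ang II 6 of 7 were called lower (median -0.40), and all 7 values were below 0. Kdr encodes VEGFR2, the main signalling receptor for VEGF-A (chromosome 5, 75932827 to 75978458, minus strand), and had the lowest value of all 43 genes under saline. It ran from 15.9 to 30.8 scaled FPKM (median 18.2) in WT saline, 10.7 to 21.4 (16.9) in WT Ang II, 8.86 to 16.8 (13.3) in Tg saline and 8.48 to 16.0 (12.3) in Tg Ang II. In WT saline 3 libraries, 1 female and 2 males, stood at 29.2 to 30.8 and the other 8 at 15.9 to 21.2. Tg libraries overlapped WT saline at 15.9 to 16.8. The difference between the genotypes was -0.71 ± 0.12 (adjusted p = 1e-05), or 39.0% lower, under saline and -0.40 ± 0.12 (adjusted p = 0.0066) with Ang II. Flt1, or VEGFR1, which also binds VEGF-A and yields a soluble decoy form, was at -0.65 ± 0.11 (adjusted p = 2.5e-06) and -0.46 ± 0.10 (adjusted p = 0.00021). Nrp1, a co-receptor of VEGF that is also made by other cell types, was at -0.36 ± 0.09 (adjusted p = 0.00089) under saline. With Ang II it was at -0.13 ± 0.08 (adjusted p = 0.23) and was not called. The fit without libraries 329 and 847 did call it with Ang II, and its estimate in that fit is not given here.

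Tie1 and Tek form the angiopoietin receptor pair. Tie1 (chromosome 4, 118471191 to 118490061, minus strand), an orphan receptor that pairs with TEK, ran from 14.7 to 21.4 scaled FPKM (median 17.0) in WT saline and from 9.43 to 14.7 (11.7) in Tg saline, and every Tg library was below every WT library, though both ranges meet at 14.7 when rounded. With Ang II the ranges were 12.7 to 20.6 (17.4) in WT and 10.9 to 18.6 (12.5) in Tg, and they overlapped. Its differences were -0.53 ± 0.07 (adjusted p = 1.8e-07) and -0.43 ± 0.07 (adjusted p = 3.4e-06). Tek, or TIE2, the receptor that binds the angiopoietins, was at -0.40 ± 0.09 and -0.24 ± 0.08, both called. Ptprb, a phosphatase that restrains TIE2 (VE-PTP), was at -0.51 ± 0.12 and -0.30 ± 0.12. In WT Ang II its level was 1.93 scaled FPKM in library 329, where the other 13 libraries ran from 6.87 to 11.3, a value singled out after it was seen. Eng, or endoglin, a TGF-beta and BMP co-receptor, ran from 33.8 to 49.7 (43.5) in WT saline, 30.6 to 45.6 (37.4) in WT Ang II, 24.6 to 37.7 (29.5) in Tg saline and 21.9 to 33.9 (28.6) in Tg Ang II. The groups overlapped, and it was lower in Tg under both treatments (-0.51 ± 0.07, adjusted p = 3e-07, and -0.42 ± 0.07, adjusted p = 3.2e-06). Exons of Eng overlap those of Fpgs on the opposite strand.

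**Figure D3:**
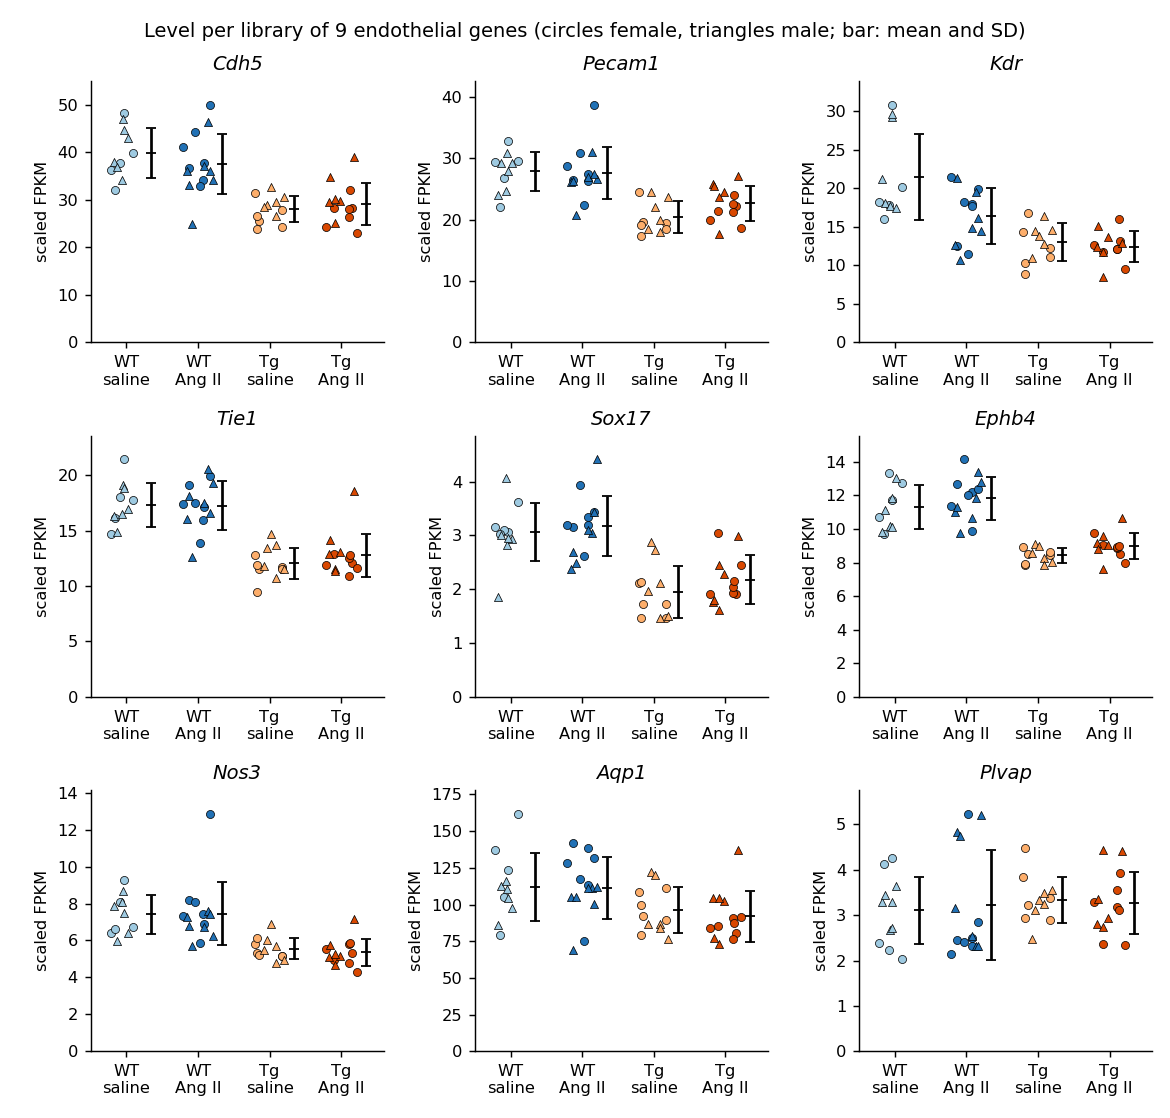
Scaled FPKM (vertical axis, from 0) of 9 of the endothelial genes in each library, by group, circles for females and triangles for males, with the group mean and SD. Tie1 and Ephb4 show no overlap between Tg and WT under saline, Aqp1 overlaps widely, and Plvap lies at like levels in all 4 groups.

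All 7 transcription factors were called lower in Tg under saline (median -0.47). With Ang II 6 were called lower (median -0.28), and all 7 values were below 0. The SOXF factors, which act in arterial and lymphatic specification and vessel growth, had the lowest values of the group with Ang II. Sox17, a marker of arterial endothelium, ran from 1.85 to 4.07 scaled FPKM (median 3.03) in WT saline, 2.39 to 4.42 (3.17) in WT Ang II, 1.46 to 2.88 (1.85) in Tg saline and 1.61 to 3.04 (2.05) in Tg Ang II. The groups overlapped, under saline through 1 WT library at 1.85, where the other 10 began at 2.83, and through the highest Tg libraries. The differences were -0.66 ± 0.12 (adjusted p = 1.4e-05) and -0.54 ± 0.11 (adjusted p = 0.00011), and the exons of Sox17 overlap a gene on the opposite strand. Sox18, the most abundant factor of the group, had medians of 20.9 and 22.2 in WT and of 13.9 and 15.3 in Tg, under saline and Ang II in turn (-0.53 ± 0.14, adjusted p = 0.0014, and -0.53 ± 0.12, adjusted p = 0.00083). Sox7 was at -0.58 ± 0.14 and -0.62 ± 0.13, the lowest value of all 43 genes with Ang II, and its saline call ended in a fit with a block for runs of library numbers, described further on.

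The 3 ETS factors were called under both treatments. Erg, which maintains endothelial identity, ran from 4.84 to 8.06 scaled FPKM (median 6.00) in WT saline, 4.71 to 7.07 (5.87) in WT Ang II, 4.14 to 5.64 (4.63) in Tg saline and 3.88 to 6.37 (5.03) in Tg Ang II. Tg and WT overlapped under both treatments, and the difference was -0.40 ± 0.08 (adjusted p = 5.4e-05) under saline and -0.22 ± 0.07 (adjusted p = 0.015) with Ang II. Fli1 (-0.43 and -0.26) and Ets1 (-0.47 and -0.28), which are also made by blood cells, were likewise lower. With counts scaled to library size alone, Erg, Fli1 and Ets1 were no longer called with Ang II. Nr2f2, the venous factor at the edge of the filter, was at -0.39 ± 0.11 under saline (adjusted p = 0.0039, a call that ended with the same block) and -0.18 ± 0.10 with Ang II (adjusted p = 0.18).

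Notch and ephrin genes, which divide arteries from veins, were called lower for all 4 members under both treatments (medians -0.46 and -0.41). Ephb4 (chromosome 5, 137350109 to 137378669, plus strand), the receptor found on veins and also capillaries, had the smallest p and error of the 43 genes. It ran from 9.68 to 13.3 scaled FPKM (median 11.1) in WT saline, 9.74 to 14.1 (11.9) in WT Ang II, 7.86 to 9.11 (8.47) in Tg saline and 7.59 to 10.6 (9.01) in Tg Ang II. Under saline no Tg library reached the WT range, and with Ang II the ranges overlapped between 9.74 and 10.6. The differences were -0.42 ± 0.06 (adjusted p = 8.1e-08) and -0.39 ± 0.05 (adjusted p = 1.6e-07). Such a complete separation with Tg below was seen for 2 members under saline, Ephb4 and Tie1, and for 1.43% of all genes tested. With Ang II it was seen for 0 members and 0.0946% of all genes. The WT Ang II group there included library 329, whose Larp6 level was in the Tg range. Separation was not computed without it, so these shares do not compare the 2 treatments.

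Efnb2, or ephrin-B2, the arterial partner of EPHB4, ran from 1.74 to 3.58 scaled FPKM (median 3.06) in WT saline, 1.83 to 2.92 (2.53) in WT Ang II, 1.18 to 2.54 (1.73) in Tg saline and 1.54 to 2.80 (1.72) in Tg Ang II. It differed by -0.62 ± 0.11 (adjusted p = 2.3e-05) and -0.39 ± 0.11 (adjusted p = 0.0037). Its groups overlapped, and both members of the ephrin pair were lower in Tg. Notch1, the receptor (-0.49 ± 0.10 and -0.42 ± 0.09), and Dll4, its arterial ligand (-0.42 ± 0.12 and -0.44 ± 0.11), were called under both treatments. The saline call of Dll4 ended with library size alone and with a block for runs of library numbers. Exons of Notch1, Dll4 and Ephb4 overlap genes on the opposite strand.

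Genes of capillary transport and caveolae were called lower for 2 of 5 members under saline (median -0.25) and 2 of 5 with Ang II (-0.18). Whether this group differs from the other members was not tested. Aqp1, a water channel of continuous capillaries, was the most abundant of the 43 genes and ran from 79.0 to 162 scaled FPKM (median 110) in WT saline, 69.1 to 142 (112) in WT Ang II, 76.5 to 122 (90.9) in Tg saline and 72.9 to 137 (87.7) in Tg Ang II. The groups overlapped through most of their ranges. Its difference was -0.22 ± 0.10 (adjusted p = 0.082, 95% interval -0.43 to -0.02) under saline and -0.27 ± 0.10 (adjusted p = 0.028) with Ang II. Gpihbp1, which carries lipoprotein lipase across capillary endothelium, was at -0.25 ± 0.11 (adjusted p = 0.061) and -0.38 ± 0.10 (adjusted p = 0.0023).

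Cav1, the main coat protein of caveolae, ran from 57.4 to 90.5 scaled FPKM (median 77.4) in WT saline, 58.0 to 89.0 (73.7) in WT Ang II, 41.1 to 74.5 (58.4) in Tg saline and 52.9 to 85.1 (64.5) in Tg Ang II. It was lower in Tg under saline (-0.40 ± 0.08, adjusted p = 0.0001), as was Cav2, its partner (-0.33 ± 0.08, adjusted p = 0.0012). With Ang II neither was called (-0.18 ± 0.07, adjusted p = 0.059, and -0.13 ± 0.07, adjusted p = 0.17). Plvap, which forms the diaphragms of fenestrae and caveolae and is low in continuous capillaries, was the single member above 0. Its median scaled FPKM was 3.29 with saline and 2.52 with Ang II in WT, and 3.30 and 3.19 in Tg. The difference was 0.10 ± 0.15 under saline (95% interval -0.19 to 0.40) and 0.03 ± 0.14 with Ang II (-0.23 to 0.30). In WT Ang II 4 libraries stood at 4.74 to 5.23 and the other 10 at 2.15 to 3.16.

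Of 3 genes of haemostasis and nitric oxide, 2 were called lower in Tg under both treatments, and all 3 had values below 0. Thbd, or thrombomodulin, a surface anticoagulant, ran from 10.8 to 18.8 scaled FPKM (median 14.4) in WT saline, 11.4 to 16.7 (14.9) in WT Ang II, 7.83 to 12.9 (9.88) in Tg saline and 8.36 to 14.9 (10.3) in Tg Ang II, with differences of -0.49 ± 0.09 (adjusted p = 1.7e-05) and -0.42 ± 0.08 (adjusted p = 6.3e-05). Nos3, the endothelial nitric oxide synthase, ran from 5.96 to 9.26 (7.47) in WT saline, 5.71 to 12.9 (7.29) in WT Ang II, 4.80 to 6.88 (5.42) in Tg saline and 4.28 to 7.16 (5.28) in Tg Ang II. Its groups overlapped at the edges, and the differences were -0.41 ± 0.09 (adjusted p = 0.0002) and -0.47 ± 0.08 (adjusted p = 1.7e-05). Exons of Nos3 overlap those of Atg9b on the opposite strand. Vwf, von Willebrand factor, which is richest in veins and large vessels, was not called (-0.21 ± 0.10 and -0.19 ± 0.09).

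G protein-coupled receptors and their partners were called lower for 4 of 5 members under each treatment (medians -0.39 and -0.44). Adgrf5, an adhesion receptor of capillary endothelium, ran from 20.6 to 34.1 scaled FPKM (median 31.1) in WT saline, 15.7 to 32.1 (27.6) in WT Ang II, 13.5 to 23.3 (19.5) in Tg saline and 15.2 to 26.7 (18.6) in Tg Ang II. The overlap under saline was between 20.6 and 23.3. It was 35.8% lower in Tg under saline (-0.64 ± 0.11, adjusted p = 4e-06) and at -0.48 ± 0.10 (adjusted p = 0.00017) with Ang II. Adgrl4, or ELTD1, a related adhesion receptor, had medians of 13.7 and 13.2 in WT and of 9.74 and 10.4 in Tg, under saline and Ang II in turn. Its differences were -0.56 ± 0.10 (adjusted p = 3e-05) and -0.29 ± 0.10 (adjusted p = 0.018). S1pr1, the sphingosine 1-phosphate receptor that tightens endothelial junctions, ran from 17.9 to 33.9 (26.0) in WT saline, 15.1 to 52.7 (28.1) in WT Ang II, 12.2 to 33.2 (17.9) in Tg saline and 15.6 to 27.3 (19.4) in Tg Ang II, so that the ranges overlapped almost whole. It was called under both treatments (-0.39 ± 0.15, adjusted p = 0.029, and -0.44 ± 0.14, adjusted p = 0.01), and under saline the call ended without library 332, 718 or 965. The saline call also ended with library size alone, with no filter on low values, in females alone and in males alone.

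The receptor for adrenomedullin is built from CALCRL and its partner RAMP2. Calcrl was at -0.23 ± 0.10 (adjusted p = 0.046) under saline, a call that ended with several of the alternative settings, and at -0.10 ± 0.09 (adjusted p = 0.43) with Ang II. Ramp2 was at -0.19 ± 0.13 (adjusted p = 0.25) under saline and at -0.50 ± 0.12 (adjusted p = 0.001) with Ang II. Neither gene was called in the test of whether its genotype difference changed with Ang II. Exons of Ramp2 overlap those of a neighbour on the same strand.

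Ang II itself moved few of these genes. In WT hearts 2 of 43 were called, both lower, where 18.6% of all genes tested were called in either direction, and the median over the 43 was -0.02. They were the VEGF co-receptor Nrp1 (-0.31 ± 0.08, adjusted p = 0.0069) and the VEGF receptor Kdr (-0.39 ± 0.12, adjusted p = 0.018), with the levels given above. The WT saline libraries of this comparison are also those of the genotype comparison under saline. The call of Kdr ended without WT saline library 239, a female at 30.8 (-0.29, adjusted p = 0.069), and in females alone (-0.27, adjusted p = 0.37) and males alone (-0.50, adjusted p = 0.057). Nrp1 was called in males alone (-0.48, adjusted p = 0.017) but not in females alone (-0.14, adjusted p = 0.53). All 7 growth factor receptors and partners had values below 0 in WT, from -0.39 to -0.01, with Tek at -0.22 ± 0.08 (adjusted p = 0.06). Gpihbp1, at 0.28 ± 0.10 (adjusted p = 0.056), and Ramp2, at 0.25 ± 0.12 (adjusted p = 0.16), had the highest values and were not called.

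**Figure D4:**
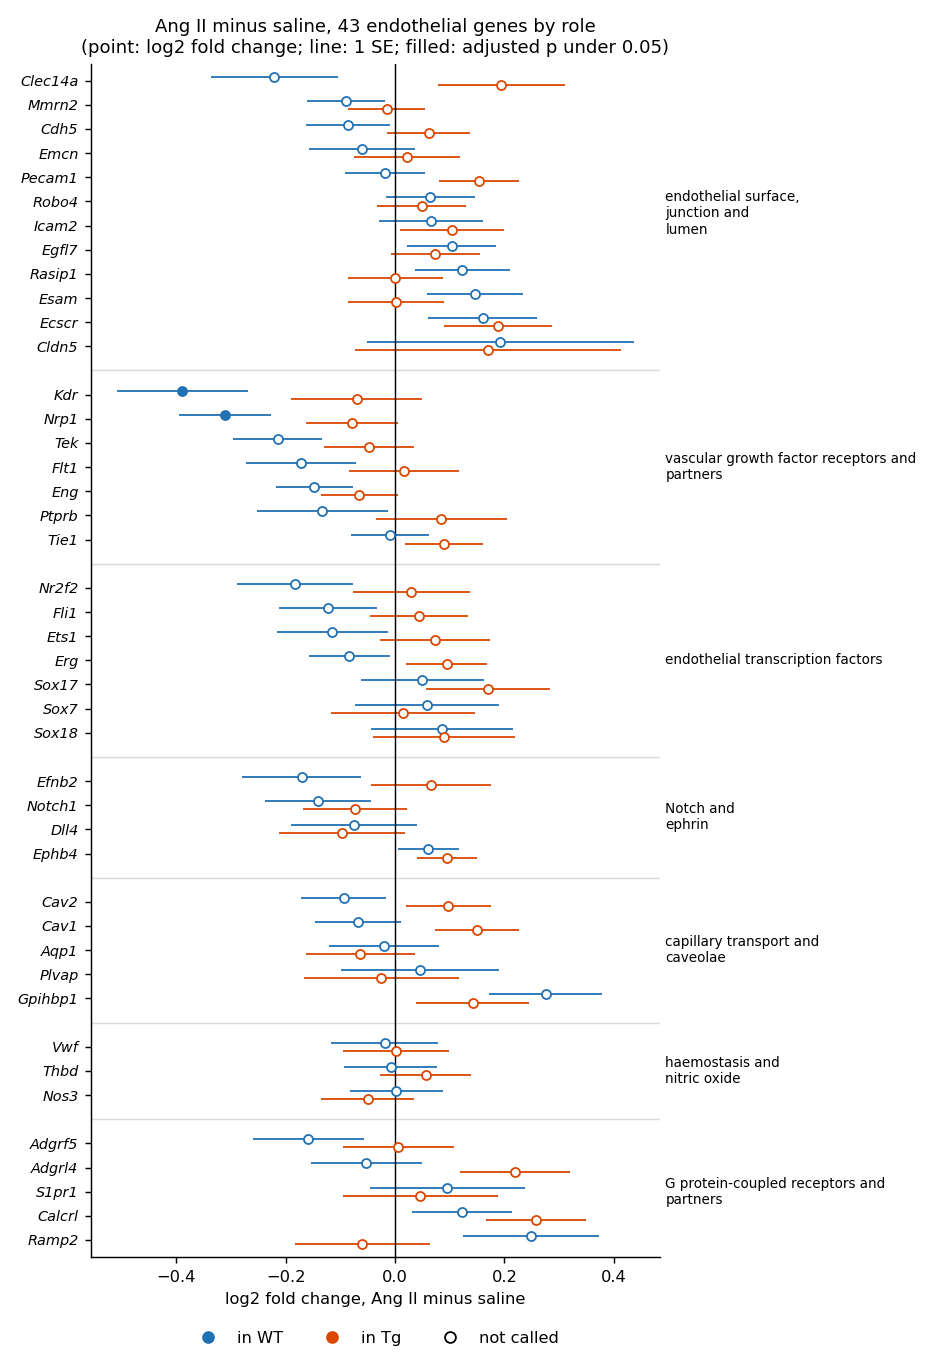
Log2 fold change between Ang II and saline for each of the 43 genes (rows, grouped by role), in WT (blue) and in Tg (orange), with a line of 1 SE to each side. Filled points passed an adjusted p of 0.05; only Kdr and Nrp1 in WT did, at -0.39 and -0.31.

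In Tg hearts edgeR called 0 of the 43 genes with Ang II, against 8.93% of all genes tested. At an unadjusted p under 0.05 there were 3, Calcrl (0.26 ± 0.09), Adgrl4 (0.22 ± 0.10) and Pecam1 (0.15 ± 0.07), all higher with Ang II. DESeq2 called 1, Calcrl, and limma called 0. The median of the 43 was 0.05. The difference between the 2 responses was called for 0 of 43 by edgeR, DESeq2 and limma, with 1 at an unadjusted p under 0.05, Clec14a (0.42 ± 0.16). Of all genes tested 0.043% were called there, a low share over the whole table. For Kdr the difference in response was 0.32 ± 0.17 (95% interval -0.01 to 0.65), and for Nrp1 0.23 ± 0.12 (-0.001 to 0.466).

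Averaged over the 4 groups, edgeR called 0 of 43 genes between females and males, with 5 at an unadjusted p under 0.05, and DESeq2 and limma called 0, against 4.42% of all genes called. Cav2 had the smallest p, at -0.16 ± 0.06 (adjusted p = 0.092). Under saline the genotype difference was called to depend on sex for 0 of 43 genes by all 3 tools and for 0.0% of all genes by edgeR, with 1 member, Cav1, at an unadjusted p under 0.05. The same test with Ang II, added after the values of each sex were seen, called 0 of 43 genes by edgeR, DESeq2 and limma and 0.0% of all genes by edgeR. At an unadjusted p under 0.05 in edgeR there were 6 members, and 964 of all 11628 genes tested. For the unadjusted counts of the other comparisons no share of all genes is given here. The difference between the sexes in the test with Ang II had a median of -0.19 over the 43, with 39 of 43 genes below 0 (a lower value in females). Over all genes tested the median was 0, with 5806 of 11628 below 0. The smallest p among the 43 was that of Mmrn2 (-0.41 ± 0.14, adjusted p = 0.49). Without libraries 329 and 847, both labelled male, the median of the 43 was -0.12, with 35 of 43 below 0. Over all genes tested it was then -0.003, with 5889 of 11608 below 0. Taken in each sex alone, where Nr2f2 did not pass the filter, 33 genes were called lower in Tg females and 20 in Tg males under saline, 19 of them in both, with medians of -0.47 and -0.38. With Ang II the counts were 28 and 10, all 10 in both, with medians of -0.47 and -0.22. The male Ang II libraries include WT 329, the lowest of its group for 21 genes, and Tg 326, the highest of its group for 33. Males alone were not fitted without these 2 libraries, and the sex test with Ang II was not run without 326. Calls over all genes in each sex alone, in either direction, are given in the last section. The values of 40 of 42 genes under saline, and of 38 of 42 with Ang II, were below 0 in both sexes. The value was lower in females than in males for 36 of 42 genes under saline and for 38 of 42 with Ang II. The shares of all genes called lower in each sex alone, or with a lower value in females there, are not given here.

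Library numbers fall into 10 runs of neighbouring numbers, which may or may not reflect handling; the labels do not say. Under saline 6 runs held both genotypes, and the mean over the 43 genes of log2(scaled FPKM + 1) was lower in Tg in all 6, by -0.47 to -0.17. With Ang II it was lower in 5 of 6 runs, from -0.42 to -0.20. In the sixth, which set Tg library 326 against WT libraries 328, 329 and 331, it was 0.14 higher in Tg, or 0.04 without library 329. A fit with a block for these runs called 32 genes under saline, no longer Calcrl, Dll4, Nr2f2 and Sox7. With Ang II it called 30, no longer Aqp1, Ptprb and S1pr1. The share of all genes called lower in that fit is not given here.

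Further endothelial and vascular signalling genes, from lists that hold none of the 43, were lower in part as well, given as counts with no test of the list. The lists were chosen with earlier results of these data known. Some of their genes, such as Vegfb among the ligands, are also made by cells other than those of the vessel wall. The counts in this paragraph are under saline, where 20.2% of all genes tested were called lower. Of 25 further endothelial genes tested, 13 were called lower in Tg and 2 higher (median -0.32). She (-0.58 ± 0.08), an adaptor of endothelial signalling, Arhgef15 (-0.55 ± 0.08) and Ushbp1 (-0.61 ± 0.10) were lower, while Lmo2, a transcriptional adaptor shared with blood cells, was higher (0.65 ± 0.08, adjusted p = 2.7e-08). Cd34, a sialomucin of endothelium and of progenitor and stromal cells, was the other that was higher (0.28 ± 0.08), named after its value was seen. Of 12 genes of Notch, BMP and flow signalling, not all of them targets, 6 were called lower and 0 higher (median -0.33). Among the 6 were Notch4, a receptor (-0.42 ± 0.11), Id1 (-0.48 ± 0.13), Hey1 (-0.59 ± 0.16) and Klf2, the shear-stress factor (-0.57 ± 0.16). Of 13 vascular ligands, 8 were called lower and 1 higher (median -0.32). Among the 8 were Pdgfb, the endothelial signal that holds pericytes (-0.52 ± 0.10), Jag2 (-0.32 ± 0.07), Vegfb (-0.25 ± 0.06) and Jag1 (-0.47 ± 0.12).

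Lymphatic markers did not move as 1 group. Of 6, Prox1 (-0.24 ± 0.10) and Flt4 (-0.17 ± 0.07) were called lower under saline, both at adjusted p = 0.045, Pdpn, which other stromal cells also make, was called higher (0.73 ± 0.16) and Ccl21a was not called (0.17 ± 0.12). Of the activation genes tested, Icam1 (0.19 ± 0.12) and Vcam1 (-0.03 ± 0.13), neither was called. With Ang II the counts called lower and higher were 16 and 1 of 25 further endothelial genes and 6 and 0 of 12 genes of Notch, BMP and flow signalling. They were 8 and 0 of 13 ligands, and 1 and 1 of 6 lymphatic markers. Of all genes tested, 16.4% were called lower with Ang II.

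**Figure D5:**
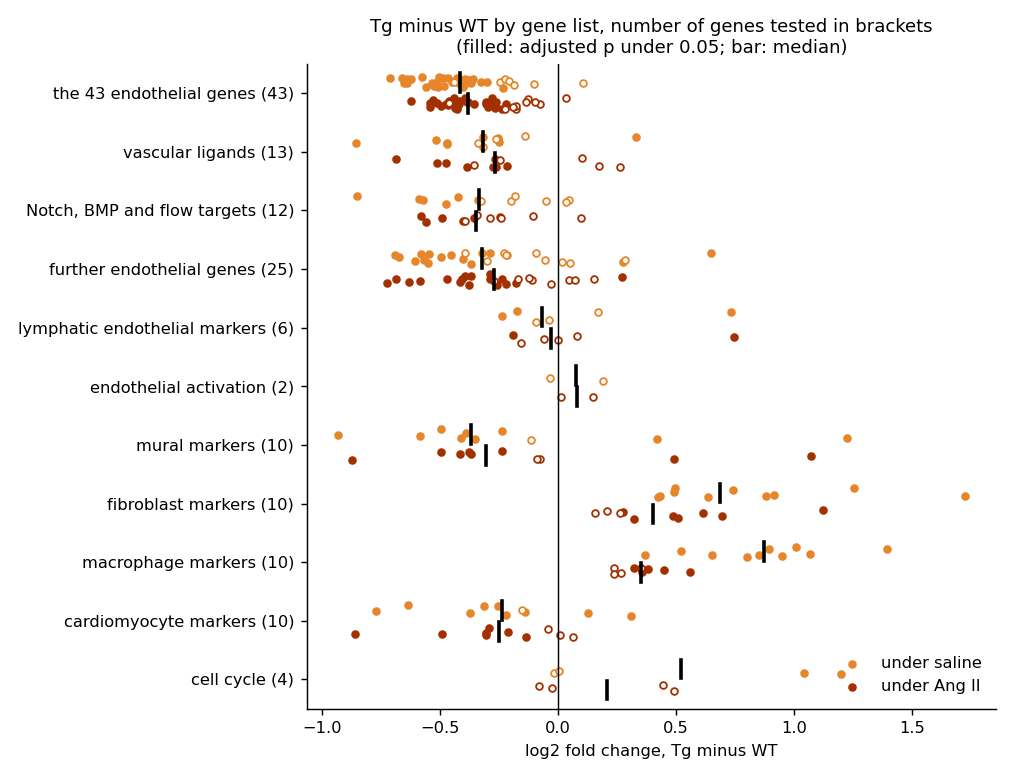
Log2 fold change between Tg and WT (horizontal axis) of the 43 genes and of each comparison list, under saline (orange) and with Ang II (dark red); filled points passed an adjusted p of 0.05 and black bars are medians. The medians of the 43 genes, the further endothelial genes, the list labelled Notch, BMP and flow targets and the vascular ligands lie between -0.42 and -0.27. Mural markers, with medians of -0.37 under saline and -0.30 with Ang II, lie in that range too, and cardiomyocyte markers are at -0.24 and -0.25. The medians of fibroblast and macrophage markers lie between 0.35 and 0.87.

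Markers of the other cells of the ventricle moved with genotype too, and their part in the result was not tested. All 10 fibroblast markers were called higher in Tg under saline (median 0.69), among them Pi16 (1.25 ± 0.12), Postn (1.72 ± 0.26), Dpt (0.63 ± 0.10) and Lum (0.74 ± 0.14), and their summed level ran from 386 to 512 scaled FPKM in WT and from 500 to 785 in Tg. All 10 macrophage markers were higher (median 0.87), among them C1qa, C1qb, C1qc and Lyz2 (0.80, 0.89, 0.85 and 1.06), with sums of 103 to 136 and 159 to 461. Of 10 mural markers, 7 were called lower and 2 higher (median -0.37). Abcc9 (-0.93 ± 0.10) and Smtn (-0.41 ± 0.06) were lower, and Acta2 (1.22 ± 0.16) and Cspg4 (0.42 ± 0.08) higher, with sums of 209 to 271 and 206 to 329. Abcc9 and Acta2 can also be made by other cells of the ventricle. Of 10 cardiomyocyte markers, 7 were called lower and 2 higher (median -0.24). Ckm (-0.77 ± 0.08), Atp2a2 (-0.64 ± 0.08) and Myh6 (-0.37 ± 0.07) were lower and Mybpc3 (0.31 ± 0.06) higher, with sums of 11700 to 13000 and 9290 to 11700. Of 4 cell-cycle genes tested, Top2a (1.20 ± 0.42) and Mki67 (1.04 ± 0.38) were higher, while Pcna (-0.02) and Mcm5 (0.00) were not called. No gene of any list was at 0 in every library. With Ang II 7 of 10 fibroblast and 6 of 10 macrophage markers were called higher. Their sums were 306 to 497 in WT and 346 to 686 in Tg, and 86.7 to 243 and 121 to 258. Of 10 mural markers 6 were then called lower and 2 higher (median -0.30). Of 10 cardiomyocyte markers 7 were called lower and 0 higher (median -0.25).

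Because these values are relative to the other RNA of each library, the scale matters. With counts divided by library size only, the median over every gene tested was 0.14 higher in Tg under saline, with 4868 genes called higher and 919 lower in place of 2376 and 2344, and 0.08 higher with Ang II (3372 and 927 in place of 1905 and 1909). On that scale 31 of the 43 genes were called lower under saline and 24 with Ang II, 0 were called higher, and the medians were -0.28 and -0.29. Plvap was above 0 on both scales.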

How the data were processed

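Poly(A) RNA of the left ventricle was made into strand-marked (dUTP) libraries, per the labels' protocols. The submitters' processing notes name cutadapt 1.9, FastQC, HISAT2 2.0.4 and StringTie 1.3.4d; the counting tool, its strand setting and the genome build are not given in the sources used here. The authors deposited whole-number read counts and FPKM per gene for 50 libraries. Gene positions are those of the deposited table; 35 of the 43 genes have the same start and end in GENCODE M21 (GRCm38). Total counts were 53877439 to 91579342.

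Counts were tested with the quasi-likelihood test of edgeR 4.0.16 (R 4.3.3) on genes that reached an FPKM of 1 in 5 libraries or more. The fit used median-of-ratios factors of the counts and 8 group means of genotype, treatment and sex, weighting the sexes equally. P-values were adjusted over all genes tested by the Benjamini-Hochberg method, with a threshold of 0.05. Levels are the deposited FPKM divided by separate median-of-ratios factors computed from the FPKM (0.776 to 1.14). Nothing in the labels pairs libraries, and the p-values set differences between group means against the spread between libraries. The steps were tested on simulated data.

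Full values are given, per role, for the gene with the highest level, the 2 with the smallest p under saline and any called in the Ang II, interaction or sex comparisons; genes of opposite direction are named, and up to 4 per comparison list. Genes and lists were chosen with earlier results of these data known. Alternatives were other scalings and filters, DESeq2 1.42.0, limma 3.58.1 on log2(FPKM + 1) or log2(FPKM + 0.1), sex as a term, each sex alone, a block for runs of library numbers, and leaving out libraries. Leaving out library 326, 165 or 965 and the test of genotype by sex with Ang II were chosen after seeing the data. The columns of libraries 329 and 847 carry letters of the other genotype; both were kept as labelled.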

Additional observations from a re-analysis of the deposited data

Results flagged for a closer look

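Within the sex-specific groups, some libraries stood far from the rest of their group by Dixon's criterion, which chance meets in about 1 of 20 groups; 31 of 344 sets of gene and group had such a library. No cause was tested. Among the genes given in full, Kdr was highest at 30.8 scaled FPKM in WT saline female 239 (others 15.9 to 20.2), Sox17 was highest at 3.62 in WT saline female 332 (3.03 to 3.16) and Adgrf5 was lowest at 22.9 in WT saline female 968 (31.1 to 34.1). In Tg saline females Pecam1 was highest at 24.6 in library 237 (17.4 to 19.6).

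With Ang II, WT female 779 was lowest for Aqp1, at 74.9 (113 to 142), and for Adgrl4, at 10.4 (12.8 to 14.6), and highest for Plvap, at 5.23 (2.15 to 2.84). Aqp1 was also lowest at 69.1 in WT male 234 (100 to 112), and Nos3 was highest at 12.9 in WT female 165 (5.85 to 8.17). In Tg males Pecam1 was lowest at 17.7 in library 530 (23.8 to 27.1), and the sum of the 43 genes was highest at 711 in library 326 (490 to 559). Without library 326, 35 genes were called lower in Tg with Ang II.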

How the results depend on the processing

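Over the alternatives run, 127 counts of called genes stayed within 1.5 times the reported count and 8 did not, and none of the named genes' differences past the threshold changed sign. Among the 127 are counts that were 0 both as reported and in the alternative, for which this rule says little. The rule also passed a fall from 33 to 24 genes lower in Tg with Ang II, at library size alone. Males alone gave 20 genes lower in Tg under saline and 10 with Ang II. Ang II in WT called 0 genes in females alone and 1 in males alone, and DESeq2 called 1 with Ang II in Tg. Leaving out each WT saline female in turn gave 34 to 38 genes under saline, 33 to 34 with Ang II, 1 to 3 for Ang II in WT, 0 to 1 for Ang II in Tg and for sex, and 0 for genotype by Ang II and for genotype by sex under saline. No paired analysis was possible because each library number occurs once. Over all genes, the females-alone and males-alone counts were 3050 and 2133 under saline (4720 with all libraries), 2156 and 1983 with Ang II (3814), 657 and 599 for Ang II in WT (2160) and 7 and 521 for Ang II in Tg (1038, 634 without a filter and 598 with the run block). The genotype by Ang II count was 5, from 0 with the run block to 40 by DESeq2. The sex count was 514, with 1223 at library size alone and 321 with the run block. The share of calls that were higher moved from 50.3% to 84.1% under saline, from 49.9% to 78.4% with Ang II, from 52.3% to 80.6% for Ang II in WT and from 42.0% to 90.8% for sex with library size alone. Without library 165, 37 and 31 genes were called lower in Tg under saline and with Ang II, and without library 965, 34 under saline.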
